A study of Oryza sativa with 20 samples.

Results

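The genes described here encode the proteins of the rice cytoskeleton that were singled out by name: the actins ACT1 (LOC4333919), AC3 (LOC4334702) and ACT2 (LOC4349087), the alpha-tubulins that carry the name TubA, and the kinesin KIN12C (LOC4333349). They were found by gene name or synonym in the rice gene annotation, a rule that itself uses names and no measured values. The names were chosen with earlier results of these data known. The name TubA belongs to 2 genes, TUBA1 (LOC4343694), which has 2 features on the array, numbered 1904 and 5780, and TID1 (LOC4350197), which has 1. The members are thus 7 features of 6 genes, out of 6080 features on the cDNA array. Each of the other genes has 1 feature, which is number 4991 for ACT1, 442 for AC3, 4155 for ACT2 and 3488 for KIN12C.

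Actin filaments carry organelles and vesicles through the plant cell, and microtubules, which are polymers of alpha- and beta-tubulin, guide the deposition of cellulose and form the spindle and the phragmoplast of dividing cells. Kinesins are motor proteins that move along microtubules or act on their ends. In many plants microtubules come apart in the cold and are rebuilt when the plant warms up or becomes used to it. Actin and tubulin transcripts are also widely used as references against which other transcripts are expressed, on the premise that they vary little.

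RNA came from seedlings of the japonica rice CT6748-8-CA-17, a cultivar that tolerates chilling, grown at 29°C to the S3 stage. Per the study's methods, shoots were sampled. Each chilled group was held at 10°C for 0.5, 2, 6, 12 or 24 hours (h), and each had its own control, kept at 29°C for the same time. At each time point 2 independent biological replicates were taken, and each replicate was hybridized to a slide of its own, with chilled RNA in Cy3 and control RNA in Cy5. Every feature was present in 2 spots on a slide, and the duplicate spots were averaged here to a slide value, so that n = 2 at each time point. All values are log2 ratios of chilled over control. A ratio gives no transcript level, so genes were compared by their ratios only, the leaf identity of the tissue could not be checked against marker levels, and fewer cells of a type and less RNA per cell cannot be told apart. By the labels the dyes were not exchanged between slides, and a dye effect cannot be told apart from the effect of chilling in any single ratio.

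Replicate 2 at 2 h had no settled direction. As deposited, it correlated across features at r = -0.43 with replicate 1 of the same time and below 0 with all 9 other slides (r from -0.45 to -0.18), while the labels give it the dyes of all other slides. An exchange of dyes and an inverted ratio cannot be told apart. Its sign was turned for the values below, and values with the sign as deposited are given beside them. After turning, replicates correlated across features at 0.07 at 0.5 h and at 0.34 to 0.43 at the other times. The median log2 ratio of all features tested was 0.14 at 0.5 h, 0.31 at 2 h, 0.02 at 6 h, 0.12 at 12 h and 0.14 at 24 h, so that most of the array stood slightly above 0. One spot set, the second of replicate 2 at 6 h, has a chilled source name that gives another time. Its title and protocols give 6 h, and it was kept there. All 140 spot values of the members were present. Duplicate spots of a member differed by a median of 0.21 log2, against 0.19 over all features, and 10 of the 70 member pairs differed by more than 0.5.

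Of the 7 features, 2 passed limma's test against no change at one time point each. The kinesin KIN12C rose 3.42-fold after 0.5 h, and feature 1904 of the alpha-tubulin TUBA1 rose 3.16-fold after 24 h. Both had slide values above 0 in each replicate at that time. Adjusted p-values were taken over the 5926 features with a value on all 10 slides, among which the test called 2.45% higher at 0.5 h and 1.96% at 24 h. At 2, 6 and 12 h the test called 0.253%, 0.202% and 0.321% of all features higher and 0 of the 7 members. An unadjusted p under 0.05 with a higher ratio was found, in order of time, for 2, 5, 3, 4 and 2 of the 7 members and for 15.3%, 21.5%, 9.21%, 13.1% and 16.1% of all features. No member was called lower at any time, as were 0.0337% of all features at 0.5 h, 0.0506% at 12 h, 0.202% at 24 h and none at 2 and 6 h. The median log2 ratio of the 7 features was 0.20 at 0.5 h, 1.08 at 2 h, 0.78 at 6 h, 0.79 at 12 h and 0.58 at 24 h.

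The study's rule of a 1.8-fold mean ratio was met by 1 of the 7 features at 0.5 h, 4 at 2 h, 2 at 6 h, 3 at 12 h and 2 at 24 h. Of all features, 11.4%, 16.8%, 6.04%, 9.47% and 12.7% met it at these times. These were 12 of the 35 combinations of feature and time, and in 9 of them each replicate reached 1.8-fold alone: 1, 3, 1, 2 and 2 in order of time, against 5.11%, 5.11%, 2.21%, 3.59% and 5.06% of all features. Feature 1904 of TUBA1 and ACT1 met the rule at 4 time points each, KIN12C and AC3 at 2 each, and ACT2, feature 5780 of TUBA1 and TID1 at none.

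**Figure D1:**
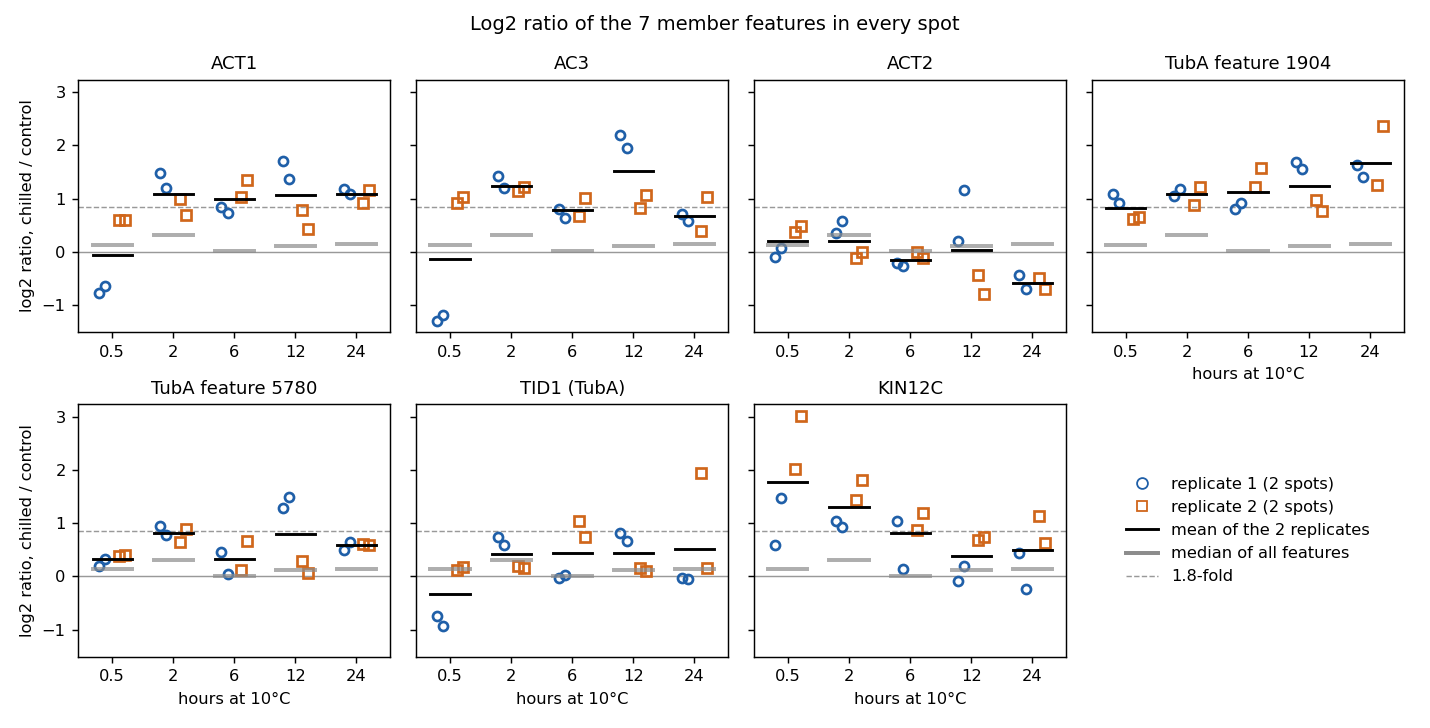
Log2 ratio of chilled over control (vertical axis) against hours at 10°C (horizontal axis, categories) for each member feature, with every spot shown (circles for replicate 1, squares for replicate 2), the mean of the 2 replicates as a black bar, the median of all features as a grey bar and 1.8-fold as a dashed line. Feature 1904 of TUBA1 lies above 0 in all 20 spots, ACT2 in 8 of 20, and the spots of KIN12C are highest at 0.5 h; replicate 2 at 2 h is shown with its sign turned.

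Among the actins, ACT1 had slide values of -0.71 in replicate 1 and 0.59 in replicate 2 at 0.5 h, so the replicates had opposite signs there. From 2 h on both were above 0: 1.34 and 0.85 at 2 h, 0.78 and 1.19 at 6 h, 1.54 and 0.61 at 12 h, and 1.13 and 1.04 at 24 h. The means from 2 to 24 h thus lay close together, at 1.09 ± 0.35 (SD, n = 2), 0.99 ± 0.29, 1.07 ± 0.66 and 1.09 ± 0.06, or 1.98- to 2.13-fold. None of them passed limma's test, with adjusted p of 0.0949, 0.347, 0.151 and 0.105 in that order. The 95% confidence interval at 24 h ran from 0.34 to 1.84. In 9 of 10 slides and 18 of 20 spots ACT1 was above 0, the exceptions being the slide of replicate 1 at 0.5 h and its spots.

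AC3, the actin also called ACT3, was split in the same way at 0.5 h, with -1.24 in replicate 1 and 0.97 in replicate 2. Its slide values were 1.30 and 1.18 at 2 h, 0.72 and 0.84 at 6 h, 2.07 and 0.94 at 12 h, and 0.64 and 0.71 at 24 h. Replicates lay near each other at 2, 6 and 24 h and apart at 12 h, where the mean was highest, 1.51 ± 0.80 (SD, n = 2) or 2.84-fold. That mean had a limma adjusted p of 0.117 and that at 2 h, 1.24 ± 0.09, also of 0.117. AC3 was thus not called at 12 h, and its adjusted p moved with the slides used. With the 0.5 h slides left out the limma adjusted p at 12 h was 0.0446, with the estimate itself at 1.51. With the deposited sign of the 2 h replicate it was 0.477. The estimate at 12 h was 0.94 without replicate 1 of that time and 2.07 without replicate 2.

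ACT2 had the lowest mean ratio of the 3 member actins at 2, 6, 12 and 24 h and the highest at 0.5 h. Its slide values were -0.02 and 0.43 at 0.5 h, 0.47 and -0.06 at 2 h, -0.24 and -0.06 at 6 h, 0.68 and -0.61 at 12 h, and -0.56 and -0.60 at 24 h. Replicates had opposite signs at 0.5, 2 and 12 h and both lay below 0 at 6 and 24 h. The duplicate spots of the 12 h slide of replicate 1 were 0.20 and 1.16, the only spots of that time above 0. At 24 h the mean was -0.58 ± 0.03 (SD, n = 2), at percentile 4.86 of all features, and its 95% confidence interval, from -1.28 to 0.12, took in no change (limma adjusted p = 0.363). With each slide's median set to 0, the means of ACT2 at 2 and 12 h moved from 0.21 to -0.11 and from 0.04 to -0.06. The mean at 0.5 h fell from 0.20 to 0.009, and those at 6 and 24 h stayed below 0.

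**Figure D2:**
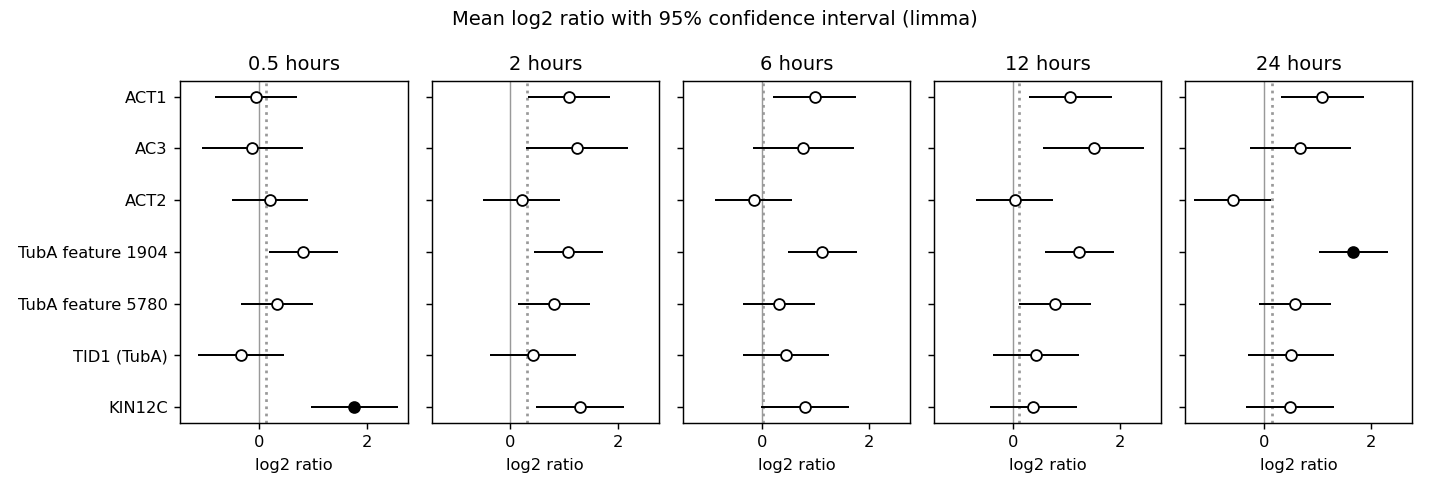
Mean log2 ratio of chilled over control (horizontal axis) with limma's 95% confidence interval for each member feature (rows) at the 5 time points (panels), with filled points for an adjusted p under 0.05; the solid line is 0 and the dotted line the median of all features. The filled points are KIN12C at 0.5 h (1.77) and feature 1904 of TUBA1 at 24 h (1.66), and the intervals of ACT2 include 0 at every time.

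Both features of the alpha-tubulin TUBA1 were above 0 on every slide, feature 1904 by more than feature 5780. Feature 1904 had slide values of 1.0 and 0.63 at 0.5 h, 1.11 and 1.05 at 2 h, 0.86 and 1.40 at 6 h, 1.62 and 0.86 at 12 h, and 1.52 and 1.8 at 24 h. All 10 slides were above 0, as in 11.3% of all features, and all 20 spots, as in 5.54% of the 5492 features with every spot measured. With the sign of the 2 h replicate as deposited, 9 of 10 slides and 18 of 20 spots would be above 0. The 24 h slides were higher than those of the other times with the exception of replicate 1 at 12 h. The means were 0.82 ± 0.26 (SD, n = 2), 1.08 ± 0.04, 1.13 ± 0.38, 1.24 ± 0.54 and 1.66 ± 0.20. Each mean was above the one before it, but no tested difference between times passed. The difference of 24 minus 2 h was 0.58 log2, with a 95% confidence interval from -0.30 to 1.46 (limma adjusted p = 0.852). The stepwise order rests on the turned sign: with the deposited sign the 2 h mean would be 0.03, below that at 0.5 h. How many of all features had such an order was not counted. Averaged over the 5 times the feature stood at percentile 98.8 of all features tested. It met the 1.8-fold rule in the mean at 4 times, and each replicate reached 1.8-fold at these times. Of all features, 3.19% met the rule in the mean at 4 or more times. With the deposited sign the feature would meet it in the mean at 3 times, and 0.726% of all features at 4 or more.

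The 24 h value of feature 1904, 1.66 with a standard error of 0.29 and a 95% confidence interval of 2.05- to 4.87-fold, had a limma adjusted p of 0.0227. The duplicate spots of replicate 2 there were 1.25 and 2.35, and each lay above the median of all features. The call was lost without either of the 24 h slides (1.8 and adjusted p = 0.184 without replicate 1, 1.52 and adjusted p = 0.0970 without replicate 2), and with the sign of the 2 h replicate as deposited (adjusted p = 0.257), since the spread is estimated over all times. With each slide's median set to 0 the feature stood at 1.54 (adjusted p = 0.0337).

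Feature 5780 of the same gene was above 0 in all 20 spots as well, but lower. Its slide values were 0.26 and 0.39 at 0.5 h, 0.86 and 0.77 at 2 h, 0.26 and 0.39 at 6 h, 1.39 and 0.18 at 12 h, and 0.57 and 0.60 at 24 h. The replicates lay near each other at all times but 12 h, where that of replicate 1 was the highest of all 10. The highest mean, 0.81 ± 0.07 (SD, n = 2) at 2 h, was 1.76-fold (limma adjusted p = 0.137). On every one of the 10 slides feature 1904 was above feature 5780, by 0.23 to 1.20 and on average by 0.62 ± 0.36 (SD over slides). The difference was 0.49 at 0.5 h, 0.27 at 2 h, 0.81 at 6 h, 0.45 at 12 h and 1.08 at 24 h. Beside other genes this was not uncommon: of 331 pairs of features assigned to one gene, 17.8% had one feature above the other on all 10 slides, and in 29.3% the mean difference was at least as large. The median absolute difference over those pairs was 0.39. With the deposited sign of the 2 h replicate, feature 1904 was above feature 5780 on 9 of 10 slides, by 0.56 ± 0.45 (SD over slides) on average, and 1.21% of the pairs had one feature above the other on all 10.

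**Figure D3:**
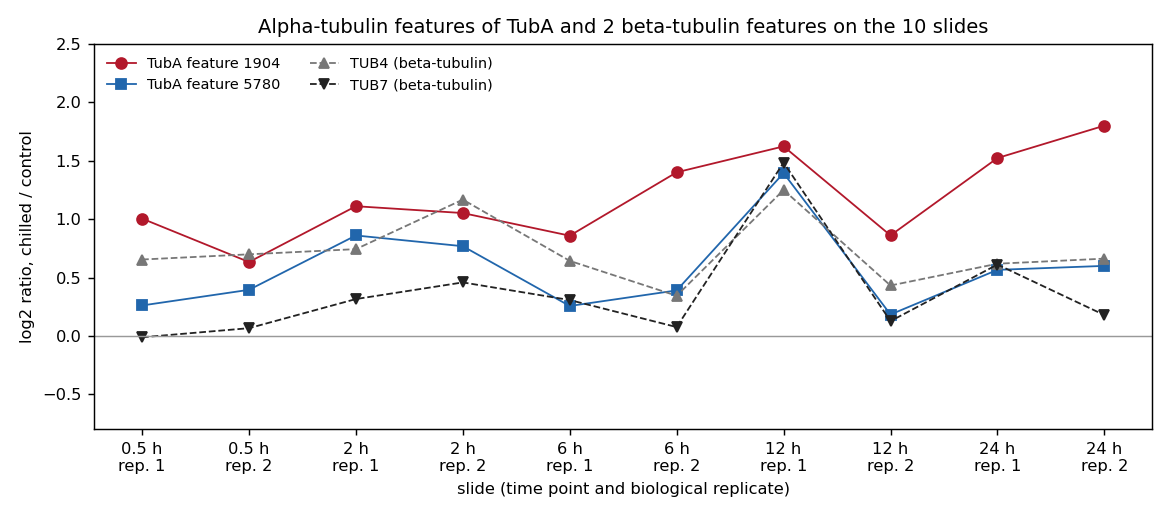
Log2 ratio of chilled over control (vertical axis) on each of the 10 slides (horizontal axis, time point and replicate) for the 2 features of the alpha-tubulin TUBA1 and for the beta-tubulins TUB4 and TUB7; lines only join the slides of a feature. Feature 1904 lies above feature 5780 on all 10 slides, and feature 5780, TUB4 and TUB7 are all at their highest on the 12 h slide of replicate 1; replicate 2 at 2 h is shown with its sign turned.

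TID1, the alpha-tubulin gene in which a rice mutation gives dwarf plants with twisted growth, varied more between replicates. Its slide values were -0.83 and 0.16 at 0.5 h, 0.66 and 0.17 at 2 h, 0.00 and 0.90 at 6 h, 0.73 and 0.13 at 12 h, and -0.04 and 1.06 at 24 h. Replicate 2 was the higher at 0.5, 6 and 24 h and replicate 1 at 2 and 12 h, and 7 of 10 slides were above 0. The means were -0.34, 0.42, 0.45, 0.43 and 0.51, with limma adjusted p from 0.485 to 0.691. The 24 h slide of replicate 2 rests on the widest pair of duplicate spots among the members, 1.95 and 0.17.

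The kinesin KIN12C had its highest ratio at 0.5 h, the time at which feature 1904 had its lowest. Kinesins of this family act at the phragmoplast in Arabidopsis, where the new cell plate is laid. The slide values of KIN12C were 1.03 and 2.52 at 0.5 h, 0.98 and 1.62 at 2 h, 0.59 and 1.03 at 6 h, 0.06 and 0.71 at 12 h, and 0.10 and 0.88 at 24 h. Replicate 2 was above replicate 1 at all 5 times, and every slide was above 0. Among slides with the same replicate number, which are separate biological samples, the value at each time up to 12 h was lower than the one before. With the deposited sign replicate 2 at 2 h would be -1.62, below replicate 1 and out of this order. The means were 1.77 ± 1.05 (SD, n = 2), 1.30 ± 0.45, 0.81 ± 0.32, 0.38 ± 0.47 and 0.49 ± 0.55. Of all features, 6.26% likewise had means that fell at each step from 0.5 to 12 h, a count that leaves out the 24 h mean. With the deposited sign the 2 h mean of KIN12C would be -0.32, below those at 6 and 12 h, and 2.40% of all features would show the stepwise order. The differences from 2 h were -0.92 at 12 h (95% confidence interval -2.05 to 0.22, limma adjusted p = 0.821) and -0.81 at 24 h (-1.94 to 0.32, adjusted p = 0.851).

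At 0.5 h the 4 spots of KIN12C were 0.59, 1.47, 2.02 and 3.02, all above the 0.14 of the median feature. The mean of 1.77 had a standard error of 0.37 and a 95% confidence interval of 1.96- to 5.96-fold, with a limma adjusted p of 0.0345. It stood at percentile 99.0 of all features. The standard error comes from a spread estimated over all times. The SD between the replicates of KIN12C at 0.5 h was 1.05, its highest of any time. Over all features the median SD between replicates was 0.49 at 0.5 h and lower at the other times, from 0.24 at 12 h to 0.34 at 2 h. The interval and the adjusted p thus do not fully reflect the wider spread at 0.5 h. Without replicate 2 at that time the value was 1.03 and the adjusted p 0.149, and without replicate 1 it was 2.52 and 0.0229. The call was also lost with each slide's median set to 0 (1.58, adjusted p = 0.0681) and with either spot set alone (1.30 and 2.24, adjusted p = 0.0920 and 0.0510), with the spot sets separate and the slide as a random block (adjusted p = 0.111), and with the deposited sign of the 2 h replicate (adjusted p = 0.451).

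With the sign of replicate 2 at 2 h as deposited, the 2 h means would be 0.25 for ACT1, 0.06 for AC3, 0.26 for ACT2, 0.03 and 0.05 for features 1904 and 5780 of TUBA1, 0.25 for TID1 and -0.32 for KIN12C. None of the 7 would meet the 1.8-fold rule at that time, and 0 of the 35 tests over all times would pass. Of the members only KIN12C would change sign, and its place in the order at 2 h, highest with the sign turned, would be the lowest. The median of the 7 would be 0.06 at 2 h, against -0.21 for all features, of which 0.101% would meet the 1.8-fold rule. Over the slides, 8 would be above 0 for ACT1 and AC3, 9 for both features of TUBA1 and for KIN12C, 6 for TID1 and 4 for ACT2.

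No member passed limma's F test for any difference among the 5 times, in which all 7 had an adjusted p of 0.965, with unadjusted p from 0.0969 for KIN12C to 0.654 for feature 5780. The F test called 0 of the 5926 features, 4.72% of which had an unadjusted p under 0.05. Of the differences from 2 h, 0 of the 7 passed at 12 or 24 h, against 0.0169% of all features at 12 h and 0 at 24 h, where 5.25% of all features had an unadjusted p under 0.05, as had 5.72% at 12 h. Differences between other neighbouring times were not tested one by one. As a description, the replicates of neighbouring times did not overlap for 5 of the 7 features between 0.5 and 2 h, against 17% of all features, for 3 between 2 and 6 h (41.5%), for AC3 alone between 6 and 12 h (31.9%) and again for AC3 alone between 12 and 24 h (34.5%). The later time was the higher one for ACT1, AC3, TID1 and both features of TUBA1 at the first of these steps, and the lower one for AC3, ACT2 and feature 5780 at the second. AC3 was higher at 12 h than at 6 and 24 h. For the remaining steps the replicates overlapped, and the steps to and from 2 h rest on the turned sign.

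The order of the genes changed along the time course. At 0.5 h it ran from KIN12C through the features 1904 and 5780 of TUBA1 to ACT2, ACT1, AC3 and TID1, and at 24 h from feature 1904 through ACT1, AC3, feature 5780, TID1 and KIN12C to ACT2. ACT2 was lowest at 2, 6, 12 and 24 h, and with the sign of the 2 h replicate as deposited it would be the highest at 2 h.

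Each member was also set against ACT2 on the same slide, as a reference actin would be used. The reference actin of the study's quantitative PCR, chosen for its constitutive expression in data that included this array, was also called ACT2. Its locus number was not matched to the gene given here. ACT1 and AC3 were above ACT2 on 9 of 10 slides each, feature 1904 on 10, feature 5780 and KIN12C on 9 each and TID1 on 8. Each count was 1 lower with the deposited sign of the 2 h replicate. ACT2 itself stood low, at percentile 28.0 of all features in the mean over the 5 times (38.4 with the deposited sign) and at 4.86 at 24 h. Most features thus lay above it in these means, and the share of all features above it on each slide was not counted. At 24 h feature 1904 exceeded ACT2 by 2.09 and 2.40 log2 in the 2 replicates, a mean of 2.24 or 4.74-fold (limma adjusted p = 0.00118), and ACT1 exceeded it by 1.69 and 1.64, a mean of 1.67 or 3.18-fold (adjusted p = 0.0192). Replicates were close in both cases. The value of ACT2 itself enters every difference on this scale, on which 13.3% of all features were called higher at 24 h. The spread of ACT2 between slides is thus shared by all features. limma's pooled spread counts it as if it were independent in each, so adjusted p-values on this scale are too small.

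For the other members the excess over ACT2 at 24 h was 1.26 for AC3, 1.16 for feature 5780, 1.09 for TID1 and 1.07 for KIN12C, with adjusted p from 0.0824 to 0.138. The difference of KIN12C at 0.5 h, 1.57, was not called (adjusted p = 0.218), as against 0.422% of all features that were called higher. limma estimated the same standard error, 0.52, for each member on this scale, with the spread pooled over all features. At 12 h ACT2 itself differed by 1.29 between replicates, and 4 of the 6 other features had a smaller spread between replicates after ACT2 was subtracted, against 12.3% of all features. The SD of AC3 was then 0.11 in place of 0.80 and that of feature 5780 was 0.06 in place of 0.86. The SD of KIN12C rose to 1.38 from 0.47 and that of TID1 to 0.49 from 0.43. At 6 h the spread shrank for 6 of 6, against 45.4% of all features, at 0.5 h for 4 (44.4%), at 2 h for 2 (8.41%) and at 24 h for 1 (53.8%), where the share among all features was the larger.

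**Figure D4:**
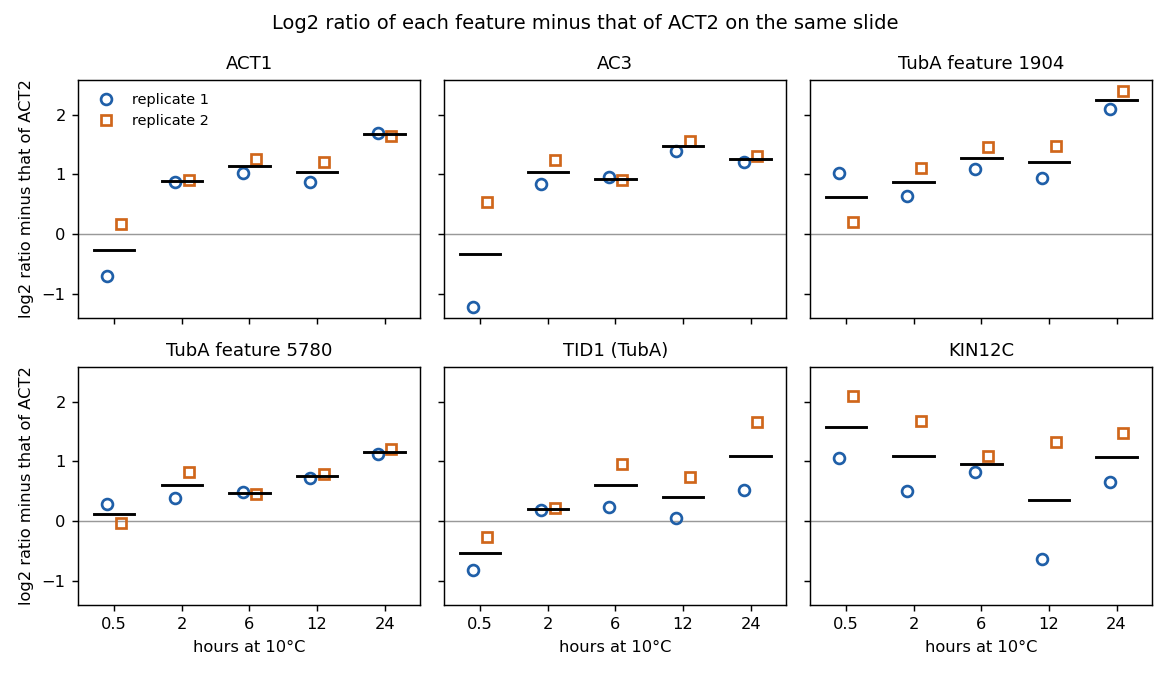
Log2 ratio of each member feature minus that of ACT2 on the same slide (vertical axis) against hours at 10°C (horizontal axis, categories), with circles for replicate 1, squares for replicate 2 and bars for their mean. At 24 h all 6 features lie above 0 in both replicates, at a time when the mean of ACT2 was at percentile 4.86 of all features. At 12 h the replicates of AC3 and of feature 5780 of TUBA1 nearly coincide, while those of KIN12C lie at -0.62 and 1.32.

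The members were also compared among themselves over the 10 slides, with each slide's median set to 0, as a description without a test, since the slides of a time point and the features of a slide are not independent. ACT1 was most like AC3 (Pearson's r = 0.90) and TID1 (r = 0.86), and less like ACT2 (r = 0.32). ACT1 minus AC3 averaged 0.02 ± 0.39 (SD over 10 slides). The features of TUBA1 had an r of 0.62 with each other, above the median of 0.17 over the 331 same-gene pairs, of which 82.2% had an r at or below that value. Feature 1904 and KIN12C had an r of -0.58, which was 0.25 with the deposited sign of the 2 h replicate. With that sign the r of ACT1 was 0.93 with AC3, 0.73 with TID1 and 0.02 with ACT2, and that of the TUBA1 features was 0.71. Actins and alpha-tubulins are families of genes with near-identical coding sequence, and how far a cDNA spot also bound transcripts of related genes was not tested.

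Over the same slides, 710 named features of other genes were ranked by their likeness to each member, and the 3 highest of each are named. ACT1 was nearest to the ribosomal protein gene RPS7 (r = 0.95), GLUP4, which encodes the small GTPase Rab5A (0.94), and the glyoxalase GLYI-11 (0.93). AC3 was nearest to the metallothionein MT2C (0.95), ADIPOR3 (0.94) and the proteasome subunit gene RPN7 (0.94). For ACT2 they were MOCS2A, of molybdenum cofactor synthesis (0.89), the expansin EXP2 (0.84), which loosens cell walls, and the fatty acid desaturase SSI2 (0.82).

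For feature 5780 of TUBA1 the 2 nearest were beta-tubulins, the partners of alpha-tubulin in the microtubule: TUB7 (r = 0.88) and TUB4 (0.85), followed by the ribosomal protein gene RPS4 (0.82). Feature 1904 had lower highest values, 0.75 with the kinase GSK2 of brassinosteroid signaling, 0.74 with GAPC, a cytosolic glyceraldehyde-3-phosphate dehydrogenase, and 0.74 with SET33. TID1 was nearest to the cap-binding factor eIF-4E-1 (0.89), the proteasome subunit gene RPN11 (0.88) and Y14a (0.87), and KIN12C to GH3.7 (0.88), Anp32 (0.86) and the cellulose synthase-like gene CSLC2 (0.86). A high r over 10 slides can rest on few of them, as with the 12 h slide of replicate 1, where feature 5780, TUB7 and TUB4 stood at 1.39, 1.48 and 1.25, each its own highest value. With the deposited sign of the 2 h replicate the r of these named features ran from -0.02 for SET33 with feature 1904 to 0.94 for CSLC2 with KIN12C, and TUB7 and TUB4 were at 0.82 and 0.83 with feature 5780.

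The array holds 17 more features of named cytoskeleton genes: 8 of actin and actin-binding proteins, 4 of tubulins and 5 of kinesins. None of the 17 passed limma's test at any time. In order of time, 2, 4, 1, 3 and 1 of them had an unadjusted p under 0.05 with a higher ratio. The shares of all features were 15.3%, 21.5%, 9.21%, 13.1% and 16.1%. The median of the 17 was -0.01, 0.29, 0.03, 0.17 and -0.02 in order of time. The 1.8-fold rule was met by 2 of them at 2 h (16.8% of all features) and by 1 at 12 h (9.47%). The tubulins had the higher values: all 4 were above 0 from 2 to 24 h, with medians of 0.76, 0.55, 0.82 and 0.47. Of all features, between 51.5% and 75.2% were above 0 at these times. The 8 actin features had medians between -0.15 and 0.08 over the 5 times and the 5 kinesins between -0.22 and 0.17. The class medians were not tested. With the 2 h replicate as deposited those at 2 h would be -0.08 for the tubulins, -0.18 for the actin features and -0.23 for the kinesins.

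The highest means over the 5 times were those of TUB4 (0.72), the kinesin KIN7J (0.55) and the beta-tubulin TUB2 (0.51). With the deposited sign of the 2 h replicate they would be those of TUB4 (0.49), TUB2 (0.33) and the gamma-tubulin TUBG2 (0.33), with KIN7J at 0.28. TUB4 was above 0 on all 10 slides, from 0.34 to 1.25, and was 1.94-fold at 2 h, with 0.74 and 1.17 in the replicates. KIN7J was also above 0 on all 10 slides, but its means, 0.66, 0.79, 0.58, 0.59 and 0.15, were below those of KIN12C at 0.5, 2, 6 and 24 h. The lowest were the formin FH3 (-0.23), which nucleates actin filaments, the villin VLN5 (-0.23), which bundles them, and the actin-depolymerizing factor ADF2 (-0.19), each above 0 on 2 of 10 slides. With the deposited sign the formin FH16 (-0.28), VLN5 (-0.27) and the kinesin KIN12F (-0.24) would be the lowest. ACT7, a further actin, had slide values of -0.96 and -0.19 at 0.5 h and 0.17 and -0.23 at 24 h and averaged -0.01. Over the 10 slides its r was 0.84 with ACT1, 0.76 with AC3 and 0.41 with ACT2.

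**Figure D5:**
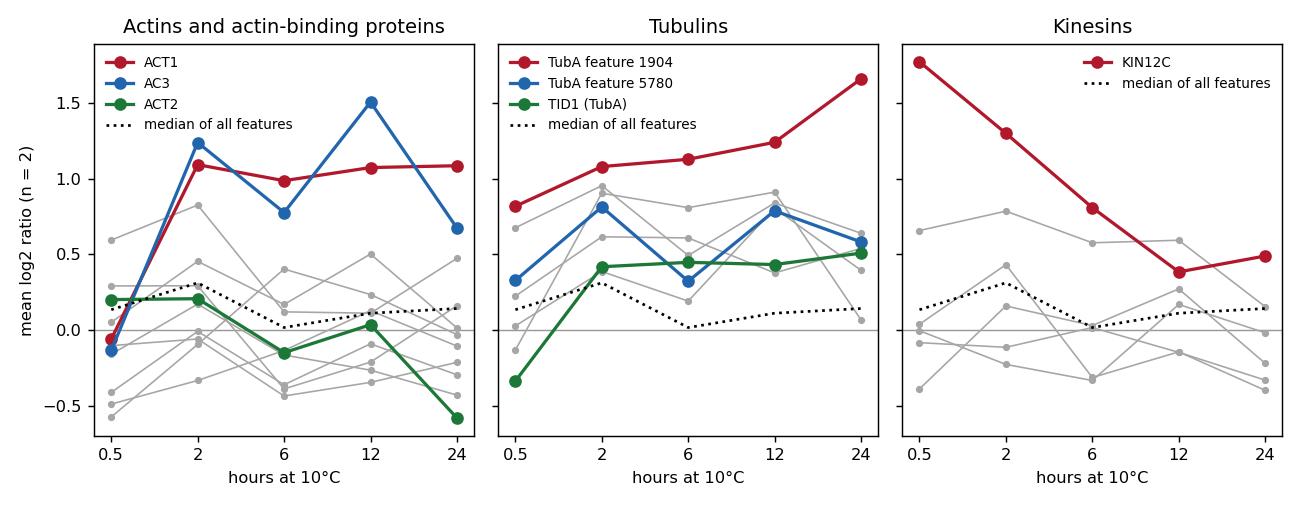
Mean log2 ratio of chilled over control (vertical axis, n = 2) against hours at 10°C (horizontal axis, categories) for actins and actin-binding proteins, tubulins and kinesins, with members in colour, the 17 other cytoskeleton features in grey and the median of all features dotted. ACT1 and AC3 lie above the other actin features from 2 h on, all tubulins lie above 0 from 2 h on, and KIN12C is above the other kinesins at all times but 12 h; the 2 h means use the turned sign.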

How the data were processed

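The deposited table holds log2 ratios, chilled (Cy3) divided by control (Cy5), in 20 columns for 10 slides with 2 spot sets each. Per the methods, the authors subtracted background from median intensities, took the ratio of medians in Acuity and normalized ratios to a mean of 1. Whether the deposited ratios have that mean was not tested. Median log2 ratios of the spot sets ran from -0.03 to 0.63 after turning. No further normalization was applied, and intensities were not used here, so signal over background is unknown, and precision is limited by how few arrays there are. The 2 columns of the second replicate at 2 hours were turned in sign (factor -1).

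Gene names came from the platform annotation and the RefSeq gene table of assembly ASM3414082v1: 4172 probes had 1 gene, 97 had several and 1811 had none. No coordinates or sequences were used. Spots were averaged on the log2 scale. limma 3.58.1 in R 4.3.3 was fitted to the 5926 features with values on all 10 slides, with a mean per time point (5 residual and 7.81 prior degrees of freedom), moderated tests against 0, an F test among times, and differences from 2 hours. Benjamini-Hochberg adjustment ran over all features of a comparison, with a threshold of 0.05. Adjusted p-values without a named tool are limma's. The script was tested on simulated data.

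Alternatives were the slide median set to 0, values referred to ACT2, the deposited sign, single or separate spot sets, complete features only, robust spread, a replicate block, the 6 hour column or the 0.5 hour slides left out, linear averaging, other fold rules, and each slide left out. The replicates are separate biological samples. Slides with the same replicate number were not treated as paired. Their deviations correlated at -0.30 to 0.34 over the 10 pairs of times, 5 of them over 0.1. These values do not settle whether such slides shared a batch.

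The members, lists and tests were chosen with earlier results of these data known. All member features are named, with the 3 most similar named features each. Other cytoskeleton genes were found by name patterns, 9 matches that are not cytoskeleton genes were left out, and those with the 3 highest and 3 lowest means are given. ACT7 was added after its values were seen. The only green-shoot marker matched, OsrbcS, had mean ratios from -0.47 to 0.39.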

Additional observations from a re-analysis of the deposited data

How the results depend on the processing

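The count of member tests called at a time point was 2 as reported. It was 1 with each slide's median set to 0, 1 with spot set 1 only, 1 with spot set 2 only, 4 with separate spot sets in a fit that has the slide as a random block (TUBA1 feature 1904 at 12 and 24 hours, AC3 at 12 and ACT1 at 24, without KIN12C), 0 with the sign of replicate 2 at 2 hours as deposited, and 1 to 3 when a slide was left out, with 1 without either 24 hour slide. With the deposited sign KIN12C at 2 hours was -0.32 (adjusted p = 0.992). TUBA1 feature 1904 at 24 hours was called in 19 of 22 alternatives (limma adjusted p 0.00118 to 0.257) and KIN12C at 0.5 hours in 14 of 21 (0.0221 to 0.451). The F test and both differences from 2 hours called 0 members in every alternative, and the 12 combinations at 1.8-fold became 8 to 18. The lowest adjusted p of feature 1904, 0.00118, came with values referred to ACT2, a scale on which adjusted p-values are too small. With the replicate block, which assumes a pairing of slides that was not established, KIN12C at 2 hours had an adjusted p of 0.0362. Feature 1904 at 24 hours had one of 0.0486 in that fit. Over all features, counts called higher were 145, 15, 12, 19 and 116 in order of time, and 50, 0, 7, 5 and 73 with the median set to 0. Over the alternatives they ranged from 0 to 165, 0 to 186, 0 to 17, 0 to 140 and 0 to 788. The causes were not tested.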
